A study of Mus musculus with 8 samples.

Results

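Collagen prolyl and lysyl hydroxylases and the chaperones that fold procollagen were followed across sorted stromal cells of newborn mouse bone. The group has 10 genes of the 15880 in the table, taken by symbol: *P4ha1*, *P4ha2*, *P4ha3*, *P4hb*, *Plod1*, *Plod2*, *Plod3*, *Fkbp10*, *Crtap* and *Serpinh1*. Each symbol had 1 Ensembl identifier. RNA was sequenced from C57BL/6 pups on postnatal day 1 that were heterozygous for *Nes-Gfp*, a transgene that places GFP under nestin regulatory elements. Bones were crushed and digested with collagenase, and cells that lacked CD45 (blood cells), CD31 (endothelium) and Ter119 (erythroid cells) were sorted by GFP and surface Pdgfrα into 4 populations. These were GFP+ Pdgfrα+, GFP- Pdgfrα+, GFP+ Pdgfrα- and GFP- Pdgfrα- cells, with 2 libraries each, 8 in all. Every library came from a pool of 3 pups and from 15000 to 80000 sorted cells, whose RNA was amplified to cDNA before the libraries were made.

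Procollagen chains are modified while they enter the endoplasmic reticulum and before they wind into a triple helix. Prolyl 4-hydroxylation lets the helix stay folded at body temperature, lysyl hydroxylation prepares the sites of sugar attachment and of cross-links, and prolyl 3-hydroxylation marks a few sites of the chains of types I and II. Chaperones then bind the chains or the finished helix until it leaves for the Golgi, and inherited loss of several of these proteins causes brittle bone disease or related skeletal disorders.

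Reads recovered from the table summed to 3564158 and 3329432 per library (GFP+ Pdgfrα+), 3869275 and 3221217 (GFP- Pdgfrα+), 3644103 and 3427644 (GFP+ Pdgfrα-) and 4058258 and 5302762 (GFP- Pdgfrα-). A normalized value is the reads of a gene plus 0.5, per 1e6 of the effective size of its library. The floor of a library was set at 3 reads, a value of 0.825 to 1.04, and all 10 genes were above it in all 8 libraries, with 8 reads at the least. The floors account for the error of counting alone, since reads of amplified cDNA are no independent molecules, whereas the confidence intervals come from limma and rest on the spread between libraries. All 10 genes had a value over 2 in at least 2 libraries, a filter that 1547 genes of the table did not meet and that was not applied. Differences are on the scale log2(value + 1), which understates changes at low values. They were tested with limma in 1 fit over the 8 libraries, and genes with an adjusted p of 0.05 or less count as called. An exact two-sided permutation test of 2 libraries against 2 cannot go below 0.333, so the p-values lean on a variance borrowed across genes by limma, with pools of pups as replicates.

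Together the 10 genes made up 0.270% and 0.216% of all GFP+ Pdgfrα+ reads and 0.182% and 0.175% of all GFP- Pdgfrα+ reads. Their share was 0.0817% and 0.0854% for GFP+ Pdgfrα- and 0.0200% and 0.0209% for GFP- Pdgfrα- cells. Both Pdgfrα+ populations were thus above both Pdgfrα- populations, with no overlap between any of the 4. Mitochondrial genes made up 36.9% and 39.1% of the GFP- Pdgfrα- reads and 24.2% and 22.2% of the GFP+ Pdgfrα- reads, against 13.0% to 14.5% with Pdgfrα. Without them the share of the 10 genes was 0.0318% and 0.0343% in GFP- Pdgfrα- and 0.310% and 0.251% in GFP+ Pdgfrα+ cells. In such bulk samples, fewer cells of a type and less RNA per cell cannot be told apart.

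A difference among the 4 populations was called by limma for 10 of the 10 genes, against 66.0% of all genes. All 10 had their lowest mean in GFP- Pdgfrα- cells and the next lowest in GFP+ Pdgfrα- cells. The first place went to GFP+ Pdgfrα+ cells for 6 genes and to GFP- Pdgfrα+ cells for 4, namely *P4ha2*, *P4ha3*, *Plod1* and *Plod3*.

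**Figure D1:**
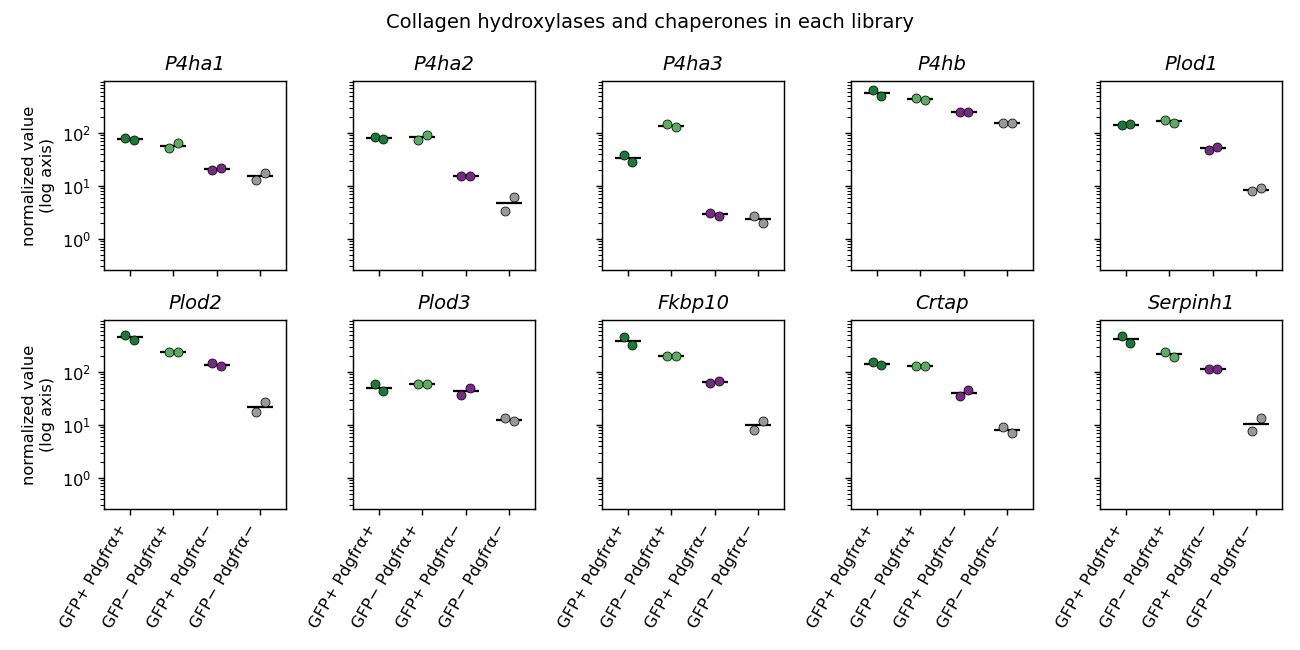
Normalized value of each of the 10 genes in each library (points, log axis) by sorted population, with the mean of the 2 libraries as a bar. Every gene has its lowest mean in GFP- Pdgfrα- cells, and *P4ha3* stands out by its values of 146 and 127 in GFP- Pdgfrα+ cells.

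Prolyl 4-hydroxylase is built from catalytic α subunits, which exist in alternative forms, and from the β subunit, which is also a protein disulfide isomerase. The first α subunit, *P4ha1* (ENSMUSG00000019916; NCBIM37 chromosome 10, 58786044 to 58836052, plus strand), is the most widely used form. Its normalized values were 81.1 and 74.6 (GFP+ Pdgfrα+), 51.3 and 63.1 (GFP- Pdgfrα+), 19.5 and 22.0 (GFP+ Pdgfrα-) and 12.8 and 17.8 (GFP- Pdgfrα-). The Pdgfrα+ libraries were all above the Pdgfrα- libraries, and no populations overlapped. In GFP+ Pdgfrα+ cells its mean of 77.8 ± 4.57 (SD, n = 2) was 3.75-fold that of 20.8 ± 1.73 (SD, n = 2) in GFP+ Pdgfrα- cells (log2 difference 1.86, standard error 0.21, adjusted p = 6.49e-05, limma). The GFP difference was not called on either side of the Pdgfrα gate. It was 0.44 within Pdgfrα+ cells (95% confidence interval -0.02 to 0.91, adjusted p = 0.299, limma) and 0.43 within Pdgfrα- cells (-0.03 to 0.90, adjusted p = 0.109, limma). The latter was called when values were rescaled without mitochondrial genes (0.58, adjusted p = 0.0369, limma) or without GFP- Pdgfrα- replicate 2 (0.66, adjusted p = 0.0329, limma), and it was -0.02 when each library was centred on its median.

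The α subunit of *P4ha2* (ENSMUSG00000018906; NCBIM37 chromosome 11, 53913597 to 53945167, plus strand) forms a second isoenzyme that is prominent in cartilage and bone. Values of *P4ha2* were 83.3 and 76.6 (GFP+ Pdgfrα+), 73.2 and 90.4 (GFP- Pdgfrα+), 15.4 and 15.0 (GFP+ Pdgfrα-) and 3.30 and 6.25 (GFP- Pdgfrα-). The ranges of the Pdgfrα+ populations overlapped, and both lay far above those of the Pdgfrα- populations. Between the Pdgfrα+ populations the log2 difference was -0.03 (95% confidence interval -0.59 to 0.54, adjusted p = 0.976, limma). Among GFP+ cells the gene was 5.25-fold higher with Pdgfrα than without it, with both libraries above both (log2 difference 2.32, adjusted p = 5.05e-05, limma). Unlike *P4ha1*, it was called within Pdgfrα- cells, where GFP+ cells had 3.19 times the mean of GFP- cells (log2 difference 1.54, adjusted p = 0.000295, limma).

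The α subunit encoded by *P4ha3* (ENSMUSG00000051048; NCBIM37 chromosome 7, 107434030 to 107468209, plus strand) was the last of the family to be found. *P4ha3* had values of 38.8 and 28.0 (GFP+ Pdgfrα+), 146 and 127 (GFP- Pdgfrα+), 3.04 and 2.70 (GFP+ Pdgfrα-) and 2.73 and 2.00 (GFP- Pdgfrα-). It was high in GFP- Pdgfrα+ cells, intermediate in GFP+ Pdgfrα+ cells and close to the floor in both Pdgfrα- populations, which overlapped. The mean in GFP+ Pdgfrα+ cells, 33.4 ± 7.62 (SD, n = 2), was 4.09-fold lower than the 137 ± 13.5 (SD, n = 2) in GFP- Pdgfrα+ cells, with both libraries below both (log2 difference -2.02, standard error 0.28, adjusted p = 0.00144, limma). *P4ha3* was the only gene of the 10 called lower in GFP+ Pdgfrα+ than GFP- Pdgfrα+ cells, and it was called lower in 19 of 19 alternative analyses with a test, at an adjusted p of up to 0.0433 in limma and the read-based fits. From GFP+ Pdgfrα- to GFP+ Pdgfrα+ cells it was 11.7-fold higher (log2 difference 3.14, adjusted p = 8.66e-06, limma). Within Pdgfrα- cells the GFP difference was 0.21 (95% confidence interval -0.40 to 0.81, adjusted p = 0.561, limma), and its sign turned under quantile normalization (-0.52) and median centring (-0.25), uncalled in each.

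The β subunit is the product of *P4hb* (ENSMUSG00000025130; NCBIM37 chromosome 11, 120421612 to 120434567, minus strand). Its values were 656 and 495 (GFP+ Pdgfrα+), 461 and 426 (GFP- Pdgfrα+), 244 and 251 (GFP+ Pdgfrα-) and 153 and 156 (GFP- Pdgfrα-). No populations overlapped, and the spread between populations was narrower than for the α subunits, with 3.72-fold between the highest mean and the lowest. The log2 difference between GFP+ Pdgfrα+ and GFP- Pdgfrα+ cells, 0.36 (95% confidence interval 0.06 to 0.67), missed the threshold (adjusted p = 0.18, limma), although both libraries were above both. Pdgfrα divided GFP+ cells by 2.32-fold (log2 difference 1.20, adjusted p = 7.24e-05, limma), and GFP divided Pdgfrα- cells by 1.60-fold (log2 difference 0.68, adjusted p = 0.0014, limma). That last call was lost when libraries were centred on their medians (0.22, adjusted p = 0.182, limma).

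Levels of different genes were compared per kilobase of exon. On that scale *P4ha3* made up 66.5% and 58.4% of the α subunit level of GFP- Pdgfrα+ cells and 27.8% and 23.2% of that of GFP+ Pdgfrα+ cells. It made up 12.1% and 10.3% in GFP+ Pdgfrα- cells and 19.8% and 11.0% in GFP- Pdgfrα- cells, so the GFP- Pdgfrα+ libraries were above the other 6. *P4ha1* had the largest share in the other populations, with a mean of 44.4% in GFP+ Pdgfrα+, 59.8% in GFP+ Pdgfrα- and 70.4% in GFP- Pdgfrα- cells against 19.3% in GFP- Pdgfrα+ cells. The share of *P4ha2* had means of 30.1%, 18.2%, 29.0% and 14.2% in GFP+ Pdgfrα+, GFP- Pdgfrα+, GFP+ Pdgfrα- and GFP- Pdgfrα- cells. With the longest transcript in place of all exons, *P4ha2* exceeded *P4ha1* in GFP+ Pdgfrα+ cells (44.2% against 32.5%) and nearly equalled it in GFP+ Pdgfrα- cells (44.0% against 45.4%, above it in replicate 1 at 45.2% against 43.4%), while *P4ha3* kept the largest share in GFP- Pdgfrα+ cells (58.2%). Per kilobase, *P4hb* stood at 5.01 and 4.37 times the summed α subunits (GFP+ Pdgfrα+), 2.23 and 2.08 times (GFP- Pdgfrα+), 10.4 and 10.1 times (GFP+ Pdgfrα-) and 11.8 and 9.13 times (GFP- Pdgfrα-). The ratio was thus lowest in GFP- Pdgfrα+ cells, and the ranges of the Pdgfrα- populations overlapped.

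**Figure D2:**
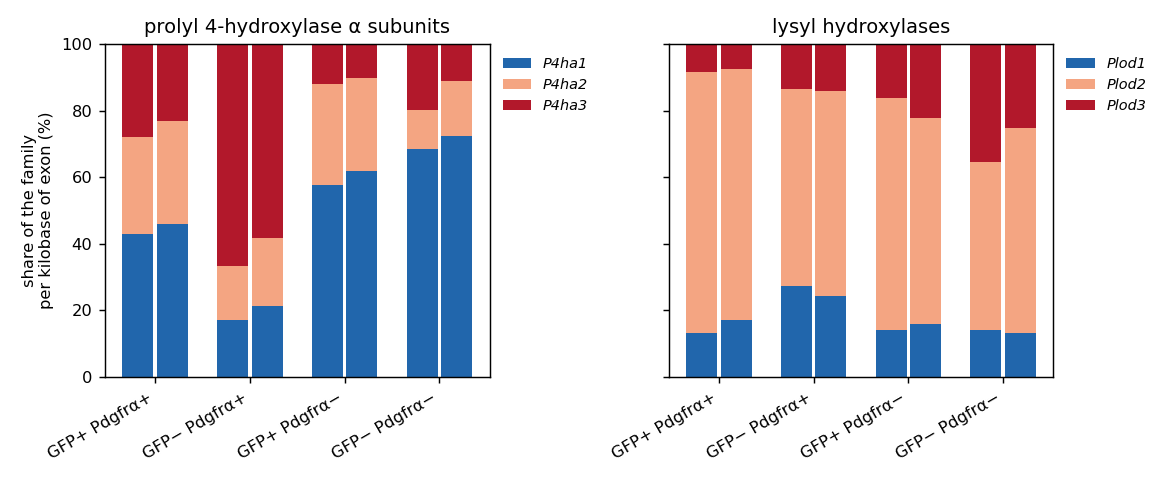
Share of each gene in the summed level of its family, per kilobase of exon (%), in each of the 8 libraries, with the 2 libraries of a population side by side. *P4ha3* takes 66.5% and 58.4% of the α subunits in GFP- Pdgfrα+ cells, and *Plod2* has the largest share of the lysyl hydroxylases in all 8 libraries.

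Lysyl hydroxylases act on different parts of the collagen chain. *Plod1* (ENSMUSG00000019055; NCBIM37 chromosome 4, 147283862 to 147310876, minus strand) encodes the enzyme that hydroxylates lysines of the helix, and its loss causes the kyphoscoliotic type of Ehlers–Danlos syndrome. Values of *Plod1* were 139 and 148 (GFP+ Pdgfrα+), 177 and 151 (GFP- Pdgfrα+), 47.5 and 53.9 (GFP+ Pdgfrα-) and 7.90 and 9.08 (GFP- Pdgfrα-). The order ran from GFP- Pdgfrα+ cells down to GFP- Pdgfrα- cells with no overlap, although the top populations were close. Their log2 difference was -0.19 (95% confidence interval -0.56 to 0.18, adjusted p = 0.614, limma). Within Pdgfrα- cells *Plod1* was 5.97-fold higher with GFP, both libraries above both (log2 difference 2.45, standard error 0.17, adjusted p = 1.69e-07, limma). Among GFP+ cells it was 2.83-fold higher with Pdgfrα (log2 difference 1.48, adjusted p = 5.84e-05, limma).

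The telopeptide lysyl hydroxylase is encoded by *Plod2* (ENSMUSG00000032374; NCBIM37 chromosome 9, 92437061 to 92503266, plus strand), and its product sets the kind of cross-link found in bone. Values of *Plod2* were 509 and 406 (GFP+ Pdgfrα+), 239 and 237 (GFP- Pdgfrα+), 146 and 131 (GFP+ Pdgfrα-) and 17.7 and 26.5 (GFP- Pdgfrα-). The populations did not overlap, with GFP+ Pdgfrα+ cells highest, and all 3 steps between neighbours in the order were called. The mean in GFP+ Pdgfrα+ cells, 458 ± 72.9 (SD, n = 2), was 1.92-fold that in GFP- Pdgfrα+ cells, 238 ± 0.840 (SD, n = 2), for a log2 difference of 0.93 (standard error 0.18, adjusted p = 0.0121, limma). It held in 15 of 19 alternatives and failed in 4 (no mean-variance trend, and without GFP- Pdgfrα+ replicate 1, GFP- Pdgfrα+ replicate 2 or GFP+ Pdgfrα+ replicate 1), at 0.77 to 0.94 and adjusted p-values of 0.11 to 0.116 in limma. *Plod2* was 6.25-fold higher with GFP in Pdgfrα- cells (log2 difference 2.62, adjusted p = 2.04e-07, limma). The step from GFP- Pdgfrα+ down to GFP+ Pdgfrα- cells was -0.78 (adjusted p = 0.00741, limma), and it passed 0.05 in 4 alternatives, reaching 0.0745 without GFP+ Pdgfrα- replicate 2, 0.0557 without GFP- Pdgfrα+ replicate 1, 0.0555 without GFP- Pdgfrα+ replicate 2 and 0.0643 without the trend (limma), at log2 differences of -0.71 to -0.79.

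*Plod3* (ENSMUSG00000004846; NCBIM37 chromosome 5, 137462889 to 137472518, plus strand) encodes an enzyme that also transfers the sugars of hydroxylysine. Values of *Plod3* were 58.1 and 42.7 (GFP+ Pdgfrα+), 59.4 and 58.7 (GFP- Pdgfrα+), 36.5 and 50.6 (GFP+ Pdgfrα-) and 13.4 and 11.7 (GFP- Pdgfrα-). Apart from GFP- Pdgfrα- cells, where it was low, the populations were close, and the GFP+ ones overlapped. The Pdgfrα difference among GFP+ cells was 0.21 (95% confidence interval -0.28 to 0.69, adjusted p = 0.549, limma), so *Plod3* was the only gene of the 10 not called there. That value was -0.10 when rescaled without mitochondrial genes, -0.02 without GFP+ Pdgfrα- replicate 1 and -0.01 without GFP+ Pdgfrα+ replicate 1. Within Pdgfrα- cells GFP went with a 3.48-fold higher level (log2 difference 1.71, adjusted p = 3.92e-05, limma). Of its 4519 exon bases, 529 overlap *Znhit1* on the other strand and 9 overlap *Mir702* on the same strand, and the labels do not say whether the libraries were stranded, so reads there cannot be told apart.

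Per kilobase, *Plod2* made up 78.5% and 75.6% of the lysyl hydroxylase level (GFP+ Pdgfrα+), 59.2% and 61.7% (GFP- Pdgfrα+), 69.8% and 62.0% (GFP+ Pdgfrα-) and 50.6% and 61.8% (GFP- Pdgfrα-). Its share was highest in GFP+ Pdgfrα+ cells, and the others overlapped in part. *Plod1* had 27.2% and 24.2% in GFP- Pdgfrα+ cells and 13.1% to 17.0% in the other 6 libraries. *Plod3* rose in share as the family fell in level, from 8.29% and 7.35% in GFP+ Pdgfrα+ cells to 35.4% and 25.1% in GFP- Pdgfrα- cells.

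*Fkbp10* (ENSMUSG00000001555; NCBIM37 chromosome 11, 100277011 to 100286138, plus strand) encodes FKBP65, a peptidyl-prolyl isomerase that works with the telopeptide lysyl hydroxylase and whose loss causes brittle bones and contractures. Values of *Fkbp10* were 453 and 316 (GFP+ Pdgfrα+), 204 and 204 (GFP- Pdgfrα+), 62.8 and 67.8 (GFP+ Pdgfrα-) and 7.90 and 11.9 (GFP- Pdgfrα-). The populations fell in 4 separate ranges, with GFP+ Pdgfrα+ cells highest. Against GFP- Pdgfrα+ cells the mean in GFP+ Pdgfrα+ cells was 1.88-fold higher, both libraries above both (log2 difference 0.89, standard error 0.21, adjusted p = 0.0275, limma). That call held in 12 of 19 alternatives. It was lost without the trend (0.144), with a pseudocount of 0.1 (0.053), and without GFP- Pdgfrα+ replicate 1 (0.172), GFP- Pdgfrα+ replicate 2 (0.173), GFP+ Pdgfrα- replicate 1 (0.067), GFP+ Pdgfrα- replicate 2 (0.0674) or GFP+ Pdgfrα+ replicate 1 (0.211), all adjusted p-values from limma. The log2 difference stayed at 0.89 in each of these but the last, where it was 0.63. *Fkbp10* was 5.89-fold higher in GFP+ Pdgfrα+ than GFP+ Pdgfrα- cells (log2 difference 2.52, adjusted p = 5.01e-06, limma) and 6.59-fold higher in GFP+ Pdgfrα- than GFP- Pdgfrα- cells (log2 difference 2.63, adjusted p = 5.15e-07, limma). Of its 2935 exon bases, 193 overlap *Nt5c3l* on the other strand. Per kilobase, the ratio of *Plod2* to *Fkbp10* was 0.791 to 0.902 in the Pdgfrα+ libraries and 1.36 to 1.63 in the Pdgfrα- libraries, without overlap.

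*Crtap* (ENSMUSG00000032431; NCBIM37 chromosome 9, 114284252 to 114299793, minus strand) encodes cartilage-associated protein, which forms a complex with prolyl 3-hydroxylase 1 and cyclophilin B and is mutated in recessive brittle bone disease. Values of *Crtap* were 154 and 134 (GFP+ Pdgfrα+), 131 and 127 (GFP- Pdgfrα+), 34.6 and 45.4 (GFP+ Pdgfrα-) and 9.05 and 6.96 (GFP- Pdgfrα-). Both Pdgfrα+ populations were high and close to each other, and GFP- Pdgfrα- cells were low. The Pdgfrα+ populations differed by 0.15 (95% confidence interval -0.27 to 0.58, adjusted p = 0.743, limma). Among GFP+ cells *Crtap* was higher with Pdgfrα (log2 difference 1.83, adjusted p = 3.47e-05, limma), and within Pdgfrα- cells it was higher with GFP (log2 difference 2.18, adjusted p = 1.47e-06, limma), with both libraries above both in each. Its level per kilobase was 1.76 and 2.03 times that of its partner *P3h1* (listed as *Lepre1*, and chosen after its values were seen) (GFP+ Pdgfrα+), 2.46 and 2.52 times (GFP- Pdgfrα+), 1.78 and 2.60 times (GFP+ Pdgfrα-) and 1.33 and 1.01 times (GFP- Pdgfrα-).

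*Serpinh1* (ENSMUSG00000070436; NCBIM37 chromosome 7, 106493885 to 106501740, minus strand) encodes HSP47, a chaperone that binds the folded triple helix. Values of *Serpinh1* were 483 and 350 (GFP+ Pdgfrα+), 235 and 195 (GFP- Pdgfrα+), 115 and 115 (GFP+ Pdgfrα-) and 7.61 and 13.6 (GFP- Pdgfrα-). It had 4 separate ranges. Its distance from GFP+ Pdgfrα+ to GFP- Pdgfrα- cells, 39.4-fold against 38.8-fold for *Fkbp10*, was narrowly the largest among the 10 genes on the reported scaling. GFP+ Pdgfrα+ cells, at 417 ± 94.6 (SD, n = 2), had 1.94 times the mean of GFP- Pdgfrα+ cells, 215 ± 28.8 (SD, n = 2), with a log2 difference of 0.94 (standard error 0.23, adjusted p = 0.0372, limma). This was called in 11 of 19 alternatives. The call was lost without the trend (0.171), with a pseudocount of 0.1 (0.0732), and without GFP- Pdgfrα+ replicate 1 (0.132), GFP- Pdgfrα+ replicate 2 (0.274), GFP+ Pdgfrα- replicate 1 (0.0915), GFP+ Pdgfrα- replicate 2 (0.0918), GFP+ Pdgfrα+ replicate 1 (0.242) or GFP+ Pdgfrα+ replicate 2 (0.056), all adjusted p-values from limma, with log2 differences of at least 0.71. Within Pdgfrα- cells *Serpinh1* was 10.9-fold higher with GFP (log2 difference 3.38, adjusted p = 1.68e-07, limma), and among GFP+ cells it was 3.62-fold higher with Pdgfrα (log2 difference 1.83, adjusted p = 0.000145, limma). The step from GFP- Pdgfrα+ down to GFP+ Pdgfrα- cells, -0.89 (adjusted p = 0.0131, limma), was lost without the trend (0.0778), with rescaling without mitochondrial genes (0.054), and without GFP- Pdgfrα+ replicate 1 (0.122), GFP+ Pdgfrα- replicate 1 (0.0907) or GFP+ Pdgfrα- replicate 2 (0.0829), all adjusted p-values from limma, with log2 differences of -0.61 without mitochondrial genes and -0.75 to -0.89 in the others.

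Over the whole group, the first comparison asked whether GFP divides Pdgfrα+ cells. Limma called 4 of the 10 genes between GFP+ Pdgfrα+ and GFP- Pdgfrα+ cells, against 5.35% of all genes. *Plod2*, *Fkbp10* and *Serpinh1* were the 3 called higher, against 3.22% of all genes, and *P4ha3* the 1 called lower, against 2.13%. The median log2 difference of the 10 genes was 0.26, beside 0.00 for all genes. These counts depended on single libraries. They came to 1 gene without GFP- Pdgfrα+ replicate 1, GFP- Pdgfrα+ replicate 2 or GFP+ Pdgfrα+ replicate 1, to 2 without GFP+ Pdgfrα- replicate 1 or 2 and to 3 without GFP+ Pdgfrα+ replicate 2. Without those first 3 libraries and without GFP+ Pdgfrα+ replicate 2, the count over all genes was 306, 246, 350 and 517 instead of 849.

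The next comparison asked whether Pdgfrα divides GFP+ cells. Of the 10 genes, 9 were called higher in GFP+ Pdgfrα+ than GFP+ Pdgfrα- cells, against 24.2% of all genes called in either direction (2080 higher and 1768 lower), with a median of 1.83 beside -0.02. *Plod3* was the exception. Within Pdgfrα- cells, GFP went with a higher level of 8 genes, against 53.7% of all genes called in either direction (4787 higher and 3740 lower), with a median of 1.95 beside 0.15, and *P4ha1* and *P4ha3* were the exceptions. The 10 genes were all called higher in GFP- Pdgfrα+ than GFP- Pdgfrα- cells (59.7% of all genes called in either direction, 5226 higher and 4250 lower; medians 3.87 and 0.17) and in GFP+ Pdgfrα+ than GFP- Pdgfrα- cells (59.3% in either direction, 5221 higher and 4189 lower; medians 3.89 and 0.20). Between GFP+ Pdgfrα- and GFP- Pdgfrα+ cells 9 were called lower and *Plod3* was not called (-0.45, 95% confidence interval -0.93 to 0.04, adjusted p = 0.163, limma), against 27.9% of all genes called in either direction (2150 higher and 2277 lower), with medians of -1.52 and 0.03. Without GFP+ Pdgfrα- replicate 1 or 2 the count over all genes between the GFP+ populations was 2158 or 2411 instead of 3848. Between GFP+ Pdgfrα- and GFP- Pdgfrα+ cells it was 2757 without GFP+ Pdgfrα- replicate 1 and 2874 without GFP- Pdgfrα+ replicate 2 instead of 4427. Comparisons that name the same population share its libraries.

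The interaction compares the GFP difference on the Pdgfrα+ side of the gate with that on the Pdgfrα- side. It was called for 8 of the 10 genes, all negative, against 44.3% of all genes called with either sign (3032 positive and 3999 negative), with a median of -1.84 beside -0.16. For these genes the GFP difference was lower on the Pdgfrα+ side than on the Pdgfrα- side. On the Pdgfrα+ side it was negative for *P4ha3* (-2.02), *Plod3* (-0.24), *Plod1* (-0.19) and *P4ha2* (-0.03), and called only for the first. The value was lowest for *Plod1*, at -2.63 (standard error 0.24, adjusted p = 3.58e-06, limma), followed by *Serpinh1* at -2.44 (adjusted p = 8.61e-05, limma). The exceptions were *P4ha1*, at 0.01 (95% confidence interval -0.65 to 0.67, adjusted p = 0.98, limma), and *P4hb*, at -0.31 (-0.75 to 0.12, adjusted p = 0.225, limma). *P4hb* was called under quantile normalization (-0.54, adjusted p = 0.0451, limma) and without GFP+ Pdgfrα+ replicate 1 (-0.52, adjusted p = 0.0442, limma), and its sign turned with median centring (0.11).

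**Figure D3:**
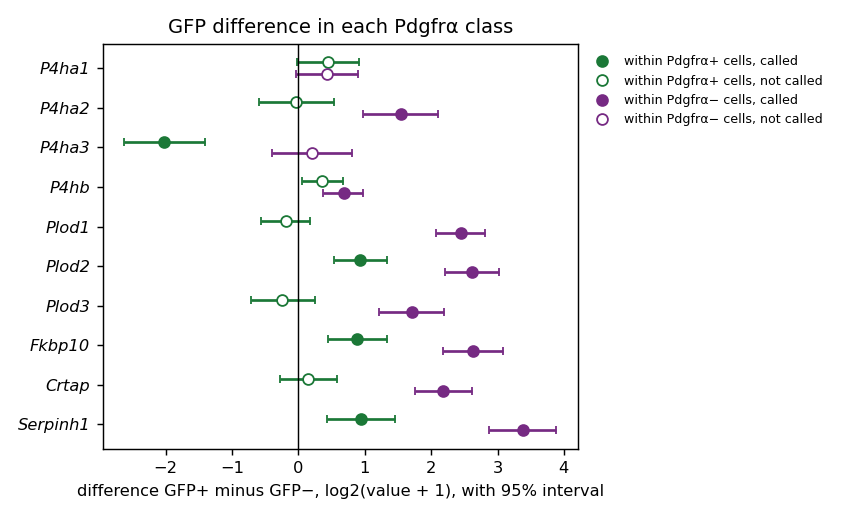
GFP+ minus GFP- difference of each gene on the scale log2(value + 1), with 95% confidence intervals, within Pdgfrα+ and within Pdgfrα- cells; filled points were called by limma. In *Serpinh1* the difference is 0.94 on the Pdgfrα+ side and 3.38 on the Pdgfrα- side, and in *P4ha3* -2.02 and 0.21.

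The scaling changed the differences of genes at large, and the cause was not tested. Centring libraries on their medians shifted the median difference of all genes by -0.45 for GFP+ Pdgfrα- against GFP- Pdgfrα- cells, by -0.45 for GFP- Pdgfrα+ against GFP- Pdgfrα- cells, by -0.48 for GFP+ Pdgfrα+ against GFP- Pdgfrα- cells and by 0.43 for the interaction. The share of called genes that were higher went from 56.1% to 38.9%, from 55.1% to 40.6%, from 55.5% to 39.6% and from 43.1% to 59.7% in these comparisons. Quantile normalization shifted the median by -0.30, -0.33, -0.36 and 0.25 and took these shares to 46.7%, 45.5%, 44.2% and 50.0%. Between the GFP+ populations it took the share from 54.1% to 48.6%, and for GFP+ Pdgfrα- against GFP- Pdgfrα+ cells from 48.6% to 51.8%. Rescaling without mitochondrial genes shifted it by -0.27 between the GFP+ populations, with the share going from 54.1% to 30.8%, by 0.25 between GFP+ Pdgfrα- and GFP- Pdgfrα+ cells, from 48.6% to 68.3%, by 0.13 for GFP+ Pdgfrα- against GFP- Pdgfrα- cells, by -0.12 for GFP+ Pdgfrα+ against GFP- Pdgfrα- cells and by -0.15 for the interaction. The 10 genes kept a positive median against GFP- Pdgfrα- cells under each of them, at 1.49 or more against 1.95 as reported for GFP+ Pdgfrα- cells, 3.42 or more against 3.87 for GFP- Pdgfrα+ cells and 3.41 or more against 3.89 for GFP+ Pdgfrα+ cells.

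In the order of mean level per kilobase over the 8 libraries, *P4hb* came first at 124, followed by *Serpinh1* at 77.8, *Fkbp10* at 56.5, *Plod2* at 51.2, *Crtap* at 45.3, *P4ha3* at 14.4, *Plod1* at 13.5, *P4ha1* at 10.4, *Plod3* at 9.16 and *P4ha2* at 7.28. This order pools populations with different means. *P4ha3* had place 6 in GFP- Pdgfrα+ cells, 10 in GFP+ Pdgfrα+ and GFP+ Pdgfrα- cells and place 9 for GFP- Pdgfrα- cells, while *P4hb* held the first place in each population. *Serpinh1* was next in all but GFP- Pdgfrα- cells, where *Plod2* at 5.29 and *Crtap* at 4.52 per kilobase exceeded its 4.35. With the longest transcript, the first 5 places stayed and *P4ha1* went from place 8 to place 10. *P4ha2* rose from 7.28 to 14.9 and to place 8, *Plod1* rose from 13.5 to 22.4 and to place 6, and *P4ha3* went to place 7.

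Replicates of a population differed beyond counting error, at a chi-square per degree of freedom of 4.12 to 9.12 over at least 12007 genes. The median absolute log2 gap between them over the 10 genes was 0.37 (GFP+ Pdgfrα+), 0.16 (GFP- Pdgfrα+), 0.14 (GFP+ Pdgfrα-) and 0.39 (GFP- Pdgfrα-). The largest gap was 0.76, for *Serpinh1* in GFP- Pdgfrα- cells. In GFP+ Pdgfrα+ cells replicate 1 was higher for 9 of the 10 genes.

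Over the 8 libraries, which share the 4 populations, the median Pearson r between the 10 genes was 0.941 over 45 pairs, and the median Spearman rho was 0.833. By Pearson r, *Plod2* and *Serpinh1* were the most alike (0.998), and *P4ha3* and *Serpinh1* the least (0.695), though these last lie 0.932 Mb apart on chromosome 7. By Spearman rho, *P4ha1* with *Fkbp10* and *P4hb* with *Serpinh1* were highest (1.000). The lowest rho, 0.667, was that of *P4ha1* with *P4ha3*, *P4ha3* with *Fkbp10* and *Plod2* with *Plod3*. Among 9008 other genes with a mean value of at least 10, those with the highest r to the mean profile were *Adamts2* (0.999), which encodes a procollagen N-proteinase, *Nhsl1* (0.998), *Slit3* (0.997), which encodes a guidance ligand, *Pcolce* (0.997), which encodes an enhancer of procollagen C-proteinase, *Calu* (0.997), a calcium-binding protein of the secretory pathway, and *Colec12* (0.997), a scavenger receptor, each over 8 libraries. Of these genes, 2015 reached the 0.848 of *P4ha3*, the lowest of the 10. Each of the 10 is part of the mean profile, which raises its own r.

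*Adamts2* (ENSMUSG00000036545) had values of 363 and 286 (GFP+ Pdgfrα+), 221 and 210 (GFP- Pdgfrα+), 38.7 and 41.3 (GFP+ Pdgfrα-) and 4.45 and 5.31 (GFP- Pdgfrα-). The order and the separation of the populations were thus those of *Fkbp10*.

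Other genes of collagen biosynthesis were taken from 8 lists with 87 of 89 genes in the table (*Mia3* and *Tll2* were not matched). Over all genes 5.35%, 24.2% and 53.7% were called in the 3 comparisons given for each list, and GFP+ Pdgfrα- against GFP- Pdgfrα- cells had 6 of 9 export genes, 13 of 19 general chaperones and 7 of 12 hypoxia-responsive genes called in either direction. A list of 13 further genes held collagen-modifying and folding proteins of the endoplasmic reticulum together with *Creb3l1* and *Sparc*, which encode a transcription factor and a matrix protein. Only these last 2 were called higher in GFP+ Pdgfrα+ than GFP- Pdgfrα+ cells. Of all 13, 10 were called higher in GFP+ Pdgfrα+ than GFP+ Pdgfrα- cells and 12 higher in GFP+ Pdgfrα- than GFP- Pdgfrα- cells (medians in the 3 comparisons 0.22, 1.28 and 2.46 beside 0.00, -0.02 and 0.15 for all genes). *Creb3l1*, whose product activates collagen genes in osteoblasts, had means of 432 ± 80.8, 127 ± 4.88, 33.0 ± 1.53 and 4.78 ± 2.08 (SD, n = 2) in GFP+ Pdgfrα+, GFP- Pdgfrα+, GFP+ Pdgfrα- and GFP- Pdgfrα- cells. It was called higher in GFP+ Pdgfrα+ than GFP- Pdgfrα+ cells (log2 difference 1.74, adjusted p = 0.00116, limma). *Sparc*, a collagen-binding protein of bone matrix, was also called there (log2 difference 1.15, adjusted p = 0.0122, limma). *Fkbp9*, a relative of *Fkbp10*, was not called (0.39, adjusted p = 0.163, limma), nor was *Colgalt1*, a galactosyltransferase of hydroxylysine (0.22, adjusted p = 0.46, limma).

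Procollagen export had 9 measured genes of 10, with 1 called higher in GFP+ Pdgfrα+ than GFP- Pdgfrα+ cells, 4 called higher in GFP+ Pdgfrα+ than GFP+ Pdgfrα- cells, and 4 higher and 2 lower in GFP+ Pdgfrα- than GFP- Pdgfrα- cells (medians 0.34, 0.52 and 0.69). Quantile normalization gave 2 higher in place of 1 in the first comparison. Without mitochondrial genes the second had 3 higher and 1 lower with a median of 0.21, and the third 4 higher and 1 lower. The third median was 0.26 under quantile normalization, with 4 higher and 1 lower, and 0.23 with median centring, with 3 higher and 3 lower. *Sec24d*, a coat protein of the vesicles that carry procollagen, had means of 171 ± 17.7, 105 ± 4.43, 42.7 ± 1.61 and 6.23 ± 1.70 (SD, n = 2) in GFP+ Pdgfrα+, GFP- Pdgfrα+, GFP+ Pdgfrα- and GFP- Pdgfrα- cells. The Pdgfrα+ populations differed by 0.70 in this gene, short of the threshold (adjusted p = 0.0639, limma) but past it under quantile normalization (0.74, adjusted p = 0.031, limma). *Sec31a* and *Sar1a*, of the same coat, were 2.33-fold and 1.44-fold higher in GFP+ Pdgfrα+ than GFP+ Pdgfrα- cells (adjusted p = 2.94e-05 and 0.0136, limma), the second not called after rescaling without mitochondrial genes (0.21, adjusted p = 0.231, limma). *Mia2*, of the export receptor, differed by 0.18 there (adjusted p = 0.42, limma), and by -0.13 after that rescaling.

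Cleavage and cross-linking enzymes were measured for 12 of 13 genes. Of these, 2 were called higher in GFP+ Pdgfrα+ than GFP- Pdgfrα+ cells, 11 higher in GFP+ Pdgfrα+ than GFP+ Pdgfrα- cells, and 8 higher and 3 lower in GFP+ Pdgfrα- than GFP- Pdgfrα- cells (medians 0.16, 2.74 and 2.19). *Lox*, the lysyl oxidase that starts cross-links, had means of 1077 ± 153, 752 ± 11.7, 58.6 ± 9.26 and 14.7 ± 7.90 (SD, n = 2) in GFP+ Pdgfrα+, GFP- Pdgfrα+, GFP+ Pdgfrα- and GFP- Pdgfrα- cells. Its Pdgfrα difference among GFP+ cells was 4.18 (adjusted p = 8.5e-07, limma), larger than that of any of the 10 hydroxylase and chaperone genes. The related *Loxl2* differed by 0.81 (adjusted p = 0.0288, limma), which was not called after rescaling without mitochondrial genes (0.50, adjusted p = 0.12, limma). *Bmp1*, the procollagen C-proteinase, and *Pcolce* were 2.61-fold and 8.70-fold higher there (adjusted p = 0.00068 and 9.95e-08, limma).

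The clients of the 10 genes are the collagen chains. Of 11 fibrillar chains, 5 were called higher and 2 lower in GFP+ Pdgfrα+ than GFP- Pdgfrα+ cells, 11 higher in GFP+ Pdgfrα+ than GFP+ Pdgfrα- cells, and 8 higher and 1 lower in GFP+ Pdgfrα- than GFP- Pdgfrα- cells (medians 0.07, 3.14 and 2.50). Quantile normalization left 1 of the 2 lower in the first comparison, with a median of 0.19. Median centring and rescaling without mitochondrial genes each gave a median of 0.04 there, and centring gave 2 lower in the last. *Col1a1* had means of 44748 ± 9103, 16096 ± 1053, 2831 ± 380 and 498 ± 88.3 (SD, n = 2) in GFP+ Pdgfrα+, GFP- Pdgfrα+, GFP+ Pdgfrα- and GFP- Pdgfrα- cells, and *Col1a2* followed it. In GFP+ Pdgfrα+ against GFP- Pdgfrα+ cells both were called higher, by 1.46 and 1.35 (adjusted p = 0.000569 and 0.000645, limma). *Col3a1* was called lower by -0.56 (adjusted p = 0.0184, limma), a difference that was 0.04 under quantile normalization, and *Col5a1* was not called (-0.27, adjusted p = 0.273, limma). Per kilobase, the summed α subunits stood at 0.435% and 0.499% of *Col1a1* plus *Col1a2* (GFP+ Pdgfrα+), 2.04% and 2.21% (GFP- Pdgfrα+), 1.24% and 1.58% (GFP+ Pdgfrα-) and 4.98% and 5.11% (GFP- Pdgfrα-). This ratio was lowest in GFP+ Pdgfrα+ cells, which had the most type I collagen, without overlap. Type I collagen is its divisor and varied more than the α subunits, so a low ratio there says little about the α subunits. Nor did the ratio follow the collagen level elsewhere. It was higher in GFP- Pdgfrα+ than GFP+ Pdgfrα- cells, although *Col1a1* was higher there too (16096 against 2831). The same collagen level was 53.0 and 55.2 times that of *Serpinh1* (GFP+ Pdgfrα+), 36.6 and 40.6 times (GFP- Pdgfrα+), 14.0 and 11.6 times (GFP+ Pdgfrα-) and 29.1 and 21.0 times (GFP- Pdgfrα-).

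Basement membrane chains came next. Of 6 chains, 0 were called by limma for GFP+ Pdgfrα+ against GFP- Pdgfrα+ cells and 0 for GFP+ Pdgfrα+ against GFP+ Pdgfrα- cells, while 4 were called higher and 1 lower in GFP+ Pdgfrα- than GFP- Pdgfrα- cells (medians 0.02, 0.02 and 1.76). An unadjusted p under 0.05 was reached by 1 chain in each of the first 2 comparisons, voom, edgeR and DESeq2 called 0, and the medians near 0 turned with the scaling (to -0.20 for GFP+ cells without mitochondrial genes). *Col4a1* had means of 1186 ± 145, 892 ± 61.6, 1153 ± 193 and 44.9 ± 18.7 (SD, n = 2) in GFP+ Pdgfrα+, GFP- Pdgfrα+, GFP+ Pdgfrα- and GFP- Pdgfrα- cells. *Col4a2* was within 713 and 763 in the first 3 populations on average and at 44.5 in GFP- Pdgfrα- cells. Of the 6 chains, 2 were called lower in GFP+ Pdgfrα- than GFP- Pdgfrα+ cells, against 27.9% of all genes called in either direction. One was *Col4a5*, at means of 12.7, 20.4, 7.56 and 0.680 in GFP+ Pdgfrα+, GFP- Pdgfrα+, GFP+ Pdgfrα- and GFP- Pdgfrα- cells (-1.35, adjusted p = 0.0208, limma; -1.12 and 0.0544 without mitochondrial genes). After that rescaling 0 of the 6 were called lower there and 1 was called higher, *Col4a1*, at 0.65 (adjusted p = 0.0387, limma; 0.85 and 0.0131 under quantile normalization) against 0.36 as reported. *Col4a4* was low, at a mean of at most 2.51. A difference between lists was not tested.

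General chaperones of the endoplasmic reticulum serve secreted proteins at large. Of 19 genes, 0 were called by limma between GFP+ Pdgfrα+ and GFP- Pdgfrα+ cells, 7 were called higher in GFP+ Pdgfrα+ than GFP+ Pdgfrα- cells, and 7 were higher and 6 lower in GFP+ Pdgfrα- than GFP- Pdgfrα- cells (medians 0.31, 0.41 and -0.05). After rescaling without mitochondrial genes the 7 between the GFP+ populations became 4, and the last 2 medians were 0.13 and 0.08. In the first comparison 8 had an unadjusted p under 0.05, and voom called 3, edgeR 1 and DESeq2 0. With libraries centred on their medians, 2 were higher and 9 lower in the last comparison, with a median of -0.51. *Hspa5*, the main chaperone of that compartment, had means of 731 ± 111, 539 ± 16.7, 603 ± 4.86 and 725 ± 137 (SD, n = 2) in GFP+ Pdgfrα+, GFP- Pdgfrα+, GFP+ Pdgfrα- and GFP- Pdgfrα- cells. *Canx*, a lectin chaperone, was highest in GFP- Pdgfrα- cells, at 755 ± 84.8 (SD, n = 2) against means of 290 to 317 elsewhere. *Hsp90b1* and *Pdia3* differed by 0.58 and -0.23 between GFP+ Pdgfrα- and GFP- Pdgfrα- cells (adjusted p = 0.00228 and 0.119, limma), and with median centring by 0.12 and -0.68 (adjusted p = 0.451 and 0.000287, limma), and *Pdia3* by 0.05 under quantile normalization. Per kilobase, *Serpinh1* stood at 0.861 and 0.773 of *Hspa5* (GFP+ Pdgfrα+), 0.616 and 0.532 (GFP- Pdgfrα+), 0.277 and 0.275 (GFP+ Pdgfrα-) and 0.0134 and 0.0312 (GFP- Pdgfrα-). *P4hb* per *Hspa5* was 0.931 to 1.03 in the Pdgfrα+ libraries and overlapped between them, and fell to 0.501 and 0.508 in GFP+ Pdgfrα- cells and 0.228 and 0.306 in GFP- Pdgfrα- cells.

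Collagen hydroxylases use oxygen and 2-oxoglutarate, as do the oxygen sensors. Of 5 oxygen-sensing dioxygenases, 0 were called by limma in each of the comparisons of GFP+ Pdgfrα+ with GFP- Pdgfrα+ cells, GFP+ Pdgfrα+ with GFP+ Pdgfrα- cells and GFP+ Pdgfrα- with GFP- Pdgfrα- cells (medians -0.25, -0.11 and 0.55, the second -0.41 without mitochondrial genes and the last -0.04 under quantile normalization and 0.09 with centring). An unadjusted p under 0.05 was reached by 0, 0 and 1 of them, and voom, edgeR and DESeq2 called 0. In GFP- Pdgfrα+ against GFP- Pdgfrα- cells, in GFP+ Pdgfrα+ against GFP- Pdgfrα- cells and in the interaction 1 of the 5 was called, against 59.7%, 59.3% and 44.3% of all genes. *Egln1*, the main sensor, had means of 49.9, 63.0, 54.0 and 40.8 (SD at most 9.01, n = 2) in GFP+ Pdgfrα+, GFP- Pdgfrα+, GFP+ Pdgfrα- and GFP- Pdgfrα- cells. It was called higher in GFP- Pdgfrα+ than GFP- Pdgfrα- cells (0.61, adjusted p = 0.00971, limma) and in the interaction (-0.72, adjusted p = 0.032, limma), both lost with median centring (0.15 and -0.29). After rescaling without mitochondrial genes its GFP difference in Pdgfrα- cells was called (0.54, adjusted p = 0.0247, limma, against 0.39 as reported), and with median centring it turned to -0.06. *Hif1an*, *Egln2* and *Egln3* were not called in any comparison on the reported scaling. Of 12 hypoxia-responsive genes, 0 were called by limma between GFP+ Pdgfrα+ and GFP- Pdgfrα+ cells, 3 were higher and 3 lower in GFP+ Pdgfrα+ than GFP+ Pdgfrα- cells, and 4 higher and 3 lower in GFP+ Pdgfrα- than GFP- Pdgfrα- cells (medians -0.18, 0.13 and 0.29, the second -0.06 without mitochondrial genes and the last 0.46 without them and -0.16 with centring). In the first of these 1 gene had an unadjusted p under 0.05, and voom, edgeR and DESeq2 called 0. *Ldha* was highest in GFP- Pdgfrα- cells, at 460 ± 55.8 (SD, n = 2), *Ndrg1* in GFP+ Pdgfrα- cells, at 103 ± 0.733 (SD, n = 2), and *Vegfa* in GFP+ Pdgfrα+ cells, at 95.4 ± 28.2 (SD, n = 2), so these genes did not share an order. *Pgk1* had means of 35.7 to 60.4.

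Over the 8 lists, 12 genes were called between GFP+ Pdgfrα+ and GFP- Pdgfrα+ cells. This count was 6 without GFP- Pdgfrα+ replicate 1, 7 without GFP- Pdgfrα+ replicate 2, 5 without GFP+ Pdgfrα+ replicate 1 and 19 without GFP- Pdgfrα- replicate 2.

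Markers of cell types moved with the groups, and their part in the levels of the 10 genes was not tested. All 7 osteoblast markers were called higher in GFP+ Pdgfrα+ than GFP- Pdgfrα+ cells, and their values summed to 9793 and 6483 in GFP+ Pdgfrα+, 479 and 328 in GFP- Pdgfrα+, 773 and 640 in GFP+ Pdgfrα-, and 116 and 113 in GFP- Pdgfrα- libraries. *Spp1* was the most abundant, at 6048 and 3915 in GFP+ Pdgfrα+ cells, and *Bglap* was at the floor in GFP- Pdgfrα+ replicate 2 and in both GFP- Pdgfrα- libraries. Of 6 tendon and fibroblast markers, 5 were called lower in GFP+ Pdgfrα+ than GFP- Pdgfrα+ cells, and the sums were 1605 and 1696 in GFP+ Pdgfrα+, 3167 and 3052 in GFP- Pdgfrα+, 58.5 and 48.4 in GFP+ Pdgfrα-, and 77.3 and 114 in GFP- Pdgfrα- libraries. *Dcn* led this list, at 1578 and 1375 in GFP- Pdgfrα+ cells and an overlapping 1423 and 1540 in GFP+ Pdgfrα+ cells, and *Scx* was at the floor in both GFP+ Pdgfrα+ and both GFP- Pdgfrα- libraries, *Kera* in both GFP+ Pdgfrα- libraries and *Mkx* in GFP+ Pdgfrα- replicate 1. The tendon and fibroblast sum and the chondrocyte sum were highest in GFP- Pdgfrα+ cells, as were the means of *P4ha2*, *P4ha3*, *Plod1* and *Plod3*. The osteoblast sum was highest in GFP+ Pdgfrα+ cells, as were the means of the other 6 genes. Below the first place the orders differed. The osteoblast sum was higher in GFP+ Pdgfrα- than GFP- Pdgfrα+ cells, whereas *Plod2*, *Fkbp10* and *Serpinh1* were called lower. The chondrocyte sum was higher in GFP- Pdgfrα- (239 and 288) than GFP+ Pdgfrα+ cells, whereas *P4ha3* was called lower.

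GFP+ Pdgfrα- cells were high in 3 lists of other lineages. Pericyte and smooth muscle markers, 7 of 7 called higher than in GFP- Pdgfrα- cells, summed to 1879 and 2467 in GFP+ Pdgfrα-, 566 and 466 in GFP+ Pdgfrα+, 447 and 466 in GFP- Pdgfrα+, and 81.7 and 124 in GFP- Pdgfrα- libraries, with *Rgs5* first at 731 and 1035. Skeletal muscle markers, also 7 of 7, summed to 1812 and 1656 in GFP+ Pdgfrα-, 122 and 97.3 in GFP+ Pdgfrα+, 36.7 and 34.6 in GFP- Pdgfrα+, and 42.1 and 20.9 in GFP- Pdgfrα- libraries, with *Actc1* first at 1046 and 856. *Pax7*, *Myf5*, *Myod1* and *Myog* were at the floor in both GFP- Pdgfrα+ libraries, and *Myf5* and *Myod1* in both GFP- Pdgfrα- libraries with *Myog* in replicate 2. Schwann cell lineage markers, 6 of 7 called higher than in GFP- Pdgfrα- cells, summed to 439 and 407 in GFP+ Pdgfrα-, 105 and 71.7 in GFP+ Pdgfrα+, 19.8 and 40.5 in GFP- Pdgfrα+, and 23.7 and 40.7 in GFP- Pdgfrα- libraries, with *Erbb3* first at 131 and 131. *Sox10* and *Foxd3* were at the floor in both GFP- Pdgfrα+ libraries and in GFP- Pdgfrα- replicate 1, *Dhh* in replicate 1 of each, and *Foxd3* also in GFP+ Pdgfrα+ replicate 2 and GFP- Pdgfrα- replicate 2.

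GFP- Pdgfrα- cells, where all 10 genes had their lowest mean on the reported scaling, held erythroid RNA. All 6 erythroid markers were called higher there than in GFP+ Pdgfrα- cells, and their sums were 6921 and 12297, against 26.0 to 90.8 in the other 6 libraries, although the sort removed Ter119+ cells. *Hbb-b1* had 4362 and 7619 of it. *Klf1* or *Epor* was at the floor in some GFP+ Pdgfrα+, GFP- Pdgfrα+ and GFP+ Pdgfrα- libraries. Of 7 chondrocyte markers, 6 were called lower and 1 higher in GFP+ Pdgfrα- than GFP- Pdgfrα- cells. Chondrocyte markers summed to 166 and 136 in GFP+ Pdgfrα+, 358 and 568 in GFP- Pdgfrα+, 73.9 and 80.1 in GFP+ Pdgfrα-, and 239 and 288 in GFP- Pdgfrα- libraries, with *Acan* first at up to 245. *Matn1* was at the floor in all libraries but those of GFP- Pdgfrα- cells, and *Col9a1* and *Matn3* in GFP+ Pdgfrα- replicate 1. Endothelial sums were 31.6 to 121, with *Tek* first over all libraries at up to 39.5 and *Tie1*, *Emcn* or *Tek* at the floor in several, and 1 of 6 was called between GFP+ Pdgfrα- and GFP- Pdgfrα- cells. Leukocyte sums of 7 of 8 markers (*Vpreb1* was not matched) were 5.94 to 61.6, with *Lyz2* first at up to 25.8, and 2 were called lower in GFP+ Pdgfrα- than GFP- Pdgfrα- cells, with *Ptprc* and *Csf1r*, among others, at the floor in GFP+ Pdgfrα+ replicate 1, both GFP- Pdgfrα+ libraries and GFP+ Pdgfrα- replicate 2. As checks of the sort, *Pdgfra* had means of 744 ± 14.9 and 816 ± 31.8 (SD, n = 2) in GFP+ Pdgfrα+ and GFP- Pdgfrα+ cells and 14.3 ± 5.42 and 3.83 ± 0.749 (SD, n = 2) in GFP+ Pdgfrα- and GFP- Pdgfrα- cells, and *Nes* 64.8 ± 10.2, 37.2 ± 13.9, 162 ± 19.4 and 6.33 ± 3.88 (SD, n = 2) in the same order. The GFP difference of *Nes* was called within Pdgfrα- cells (4.58, adjusted p = 3.13e-07, limma) but not within Pdgfrα+ cells (0.82, adjusted p = 0.213, limma).

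All 10 genes had their lowest mean in GFP- Pdgfrα- cells on the reported scaling. For *P4ha1* and *P4ha3* the difference from GFP+ Pdgfrα- cells was not called. The 250 bases before the starts of the 10 genes were therefore read from RefSeq promoters of GRCm38.p6. These held 8 of the 10 (*Plod2* and *Fkbp10* were missing). Motifs were searched on both strands. The window of *Plod3* also overlaps *Znhit1*, so a match in it may belong to either gene. ACGTG, the core of hypoxia response elements, was in 5 of the 8 windows (*P4ha1*, *P4ha2*, *P4hb*, *Plod3* and *Serpinh1*) and in 16.6% of all 32851 windows of that length. GGGCGG, the GC box, was in 6 (*P4ha1*, *P4ha2*, *P4ha3*, *P4hb*, *Plod1* and *Serpinh1*) against 32.7%. CCAAT was in 2 (*P4hb* and *Plod3*) against 33.8%, and TATAAA in 2 (*Plod1* and *Crtap*) against 12.4%. The element of the endoplasmic reticulum stress response, a CCAAT box that a CCACG follows after 9 bases, was in 0 of the 8 windows and in 0.113% of all; its ends can overlap a CCAAT or an ACGTG match. The 8 windows had a GC content of 53.6% to 70.0%, above the median of 52.4% over all windows. They held 10 to 25 CG dinucleotides against a median of 6 over all windows. ACGTG and GGGCGG each contain a CG, so such letters are more frequent in them. A match is a description of letters only.

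The windows of the α subunits and of *Serpinh1* are shown because *P4ha3* was the 1 gene of the 10 called lower in GFP+ Pdgfrα+ than GFP- Pdgfrα+ cells and *Serpinh1*, close to it on chromosome 7, was called higher. Capitals mark the ACGTG and GGGCGG matches of either strand, which here do not overlap each other, while 3 of the 5 GC boxes of *P4ha3* overlap among themselves. Coordinates are chr10:59323046-59323295 (plus strand) for *P4ha1*, chr11:54100674-54100923 (plus) for *P4ha2*, chr7:100285270-100285519 (plus) for *P4ha3* and chr7:99353240-99353489 (minus) for *Serpinh1*. The *P4ha3* window had no ACGTG and 5 GC boxes, and the others had 1 ACGTG each and 1 or 2 GC boxes.
P4ha1: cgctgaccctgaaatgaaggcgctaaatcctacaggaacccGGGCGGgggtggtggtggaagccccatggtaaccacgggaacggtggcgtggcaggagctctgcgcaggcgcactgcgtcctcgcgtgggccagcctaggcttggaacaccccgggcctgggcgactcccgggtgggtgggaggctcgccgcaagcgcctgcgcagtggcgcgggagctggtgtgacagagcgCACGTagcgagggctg
P4ha2: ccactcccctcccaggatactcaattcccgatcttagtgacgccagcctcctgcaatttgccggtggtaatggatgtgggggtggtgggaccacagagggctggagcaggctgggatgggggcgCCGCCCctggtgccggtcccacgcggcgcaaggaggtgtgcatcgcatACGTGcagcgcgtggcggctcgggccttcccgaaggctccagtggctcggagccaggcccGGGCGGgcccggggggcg
P4ha3: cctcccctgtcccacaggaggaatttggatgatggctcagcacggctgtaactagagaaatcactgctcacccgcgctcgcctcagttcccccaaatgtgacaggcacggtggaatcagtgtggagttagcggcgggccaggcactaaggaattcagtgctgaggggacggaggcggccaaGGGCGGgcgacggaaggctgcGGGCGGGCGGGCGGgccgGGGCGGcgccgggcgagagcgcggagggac
Serpinh1: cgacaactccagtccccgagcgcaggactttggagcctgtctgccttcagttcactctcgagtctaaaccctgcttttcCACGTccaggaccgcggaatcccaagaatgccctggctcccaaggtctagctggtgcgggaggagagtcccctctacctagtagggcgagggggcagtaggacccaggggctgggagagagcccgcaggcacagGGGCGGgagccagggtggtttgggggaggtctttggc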

How the data were processed

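Members and gene lists were chosen with earlier results of these data known. The authors trimmed reads with cutadapt, quantified them with RSEM 1.17 on the transcriptome of NCBIM37 (Ensembl 65) and normalized with voom of limma; the labels also name Picard. The deposited values are a normalized signal that the authors made from reads per gene, as reads plus 0.5 per 1e6 of effective library size. Whole reads were recovered from 100% of the values (tolerance 0.01). Identifiers were matched to GENCODE M1 (15849 of 15880). Values were fitted as log2(value + 1) with limma 3.58.1 (R 4.3.3; functions lmFit and eBayes, the latter with a trend; 1 coefficient per population, 4 residual degrees of freedom), with Benjamini–Hochberg adjustment over 15880 genes. The common biological coefficient of variation was 0.188 (edgeR 4.0.16). As an alternative, the replicate number was read as a shared pool of littermates and fitted as a block. The reported p-values of limma come from the fit without a block. Deviations of same-numbered libraries correlated across genes at 0.00433 to 0.0812, and the number as a block changed no call of the 10 genes. Simulated reads had known changes in GFP+ Pdgfrα+ cells only and equal means elsewhere. On them the fits found no change in the wrong direction. Differences in mitochondrial share were not simulated, so sign changes with the scaling were not covered. Where dispersion varied between genes, the share of false calls was above the nominal threshold for every fit tried. Calls near the threshold are thus less certain than their adjusted p.

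Genes were named by rule: the 10 members, the 4 most abundant genes of each of 8 pathway lists, the most abundant gene and genes at the floor from each of 9 marker lists, the 6 genes most like the mean profile, and *Pdgfra* and *Nes*. Alternatives included DESeq2 1.42.0. Figures were drawn with matplotlib 3.10.9 and tables made with pandas 2.3.3, numpy 2.4.6 and scipy 1.17.1 in Python 3.11.15.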

Additional observations from a re-analysis of the deposited data

Results flagged for a closer look

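For 8 genes the GFP difference in Pdgfrα+ cells was not the same as that in Pdgfrα- cells, by the interaction term of limma at an adjusted p of at most 0.05. The difference of the differences was -2.63 for *Plod1*, -2.44 for *Serpinh1*, -2.22 for *P4ha3*, -2.03 for *Crtap*, -1.95 for *Plod3*, -1.74 for *Fkbp10*, -1.68 for *Plod2* and -1.57 for *P4ha2*, on the log2 scale. The interaction was called for 44.3% of all genes, with either sign and with a median of -0.16. Erythroid RNA and a large mitochondrial share set GFP- Pdgfrα- cells apart, as given with the marker lists, and their part in these values was not tested.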

How the results depend on the processing

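Alternatives covered the fit, the pseudocount, the scaling, read-based tools and each library left out. The genes called between GFP+ Pdgfrα+ and GFP- Pdgfrα+ cells went from 4 to 1 without the mean-variance trend, to 2 with a pseudocount of 0.1 and to 1 to 4 with a library left out; over all genes the 849 became 532 without the trend and 246 to 1083 with a library left out. In the 8 pathway lists the 12 became 6 without the trend, 23 with voom and 5 to 19 with a library left out. Leaving out a library gave 2158 to 4056 genes (3848) between the GFP+ populations and 2757 to 4642 (4427) between GFP+ Pdgfrα- and GFP- Pdgfrα+ cells. The median r between the 10 genes, 0.941, was 0.833 as Spearman rho. Among the 10 genes, signs turned only where a difference was not called: *P4ha1* between GFP+ Pdgfrα- and GFP- Pdgfrα- cells (0.43; -0.02 centred), its interaction (0.01; -0.01 with the pseudocount, -0.16 without mitochondrial genes, -0.21 to 0.23 with a library left out), *P4ha3* between GFP+ Pdgfrα- and GFP- Pdgfrα- cells (0.21; -0.52 quantile, -0.25 centred), the interaction of *P4hb* (-0.31; 0.11 centred), *P4ha2* between GFP+ Pdgfrα+ and GFP- Pdgfrα+ cells (-0.03; -0.24 to 0.18 with libraries left out) and *Plod3* between the GFP+ populations (0.21; -0.10 without mitochondrial genes, -0.24 to 0.66 with libraries left out). The cause was not tested. The fit of compared populations alone has no interaction or overall test, DESeq2 was run without an overall test, and leaving out a replicate number everywhere leaves no residual degrees of freedom, so these have values or no entry. With 2 pools per population and amplified cDNA, differences in cell mixture and in RNA per cell cannot be told apart, and calls near the threshold depend on single libraries.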
